A study of Mus musculus with 13 samples.

Results

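Small RNAs of leptotene/zygotene spermatocytes, the cells of early meiotic prophase in which chromosomes condense and begin to pair, were compared between Pld6 knockout (KO) and wild-type (WT) mice. The 6 libraries of this stage were taken out of the 13 in the series by their titles: 2 WT libraries, each 1 biological replicate, and 4 KO libraries, which are 2 biological replicates sequenced as technical replicate 1 (50-bp reads) and technical replicate 2 (100-bp reads). Technical replicates were pooled, so that each genotype had n = 2 samples, WT1 and WT2 against KO1 and KO2. No label gives a genotype, and libraries of small RNAs do not measure the Pld6 transcript, so the genotype could not be checked. The genotype was read from the names of the deposited tables and their headers, which mark the 4 libraries as Pld6 KO. All libraries came from testicular cells of mice with a C57BL6/J background, 3 to 4 weeks old, sorted after Hoechst staining of DNA. The KO comes from a mutant line bred onto C57BL/6J over many generations, and the study describes mutant testes of this age as holding no germ cells beyond zygotene. The labels do not say which animals gave which sample, and p-values measure the spread between these samples only. The WT libraries hold 50-bp reads only and have no technical replicates. The labels name no sequencing runs and do not say whether WT and KO libraries were made or sequenced together, so genotype and library set cannot be told apart.

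PLD6 (also called MitoPLD, the mammalian homologue of Zucchini) is a nuclease of the outer mitochondrial membrane. It cuts long piRNA precursors and so sets the 5′ ends of piRNAs, the small RNAs bound by PIWI proteins that direct the silencing of retrotransposons in the male germ line. Primary piRNAs usually start with U. Secondary piRNAs arise by the ping-pong cycle, in which PIWI proteins slice transcripts opposite a piRNA and leave pairs of reads whose 5′ ends overlap by 10 nt, the partner often carrying A at base 10. Around pachytene a further population of piRNAs, mostly from intergenic noncoding transcripts, becomes abundant.

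The samples held 29956080 (WT1), 17458652 (WT2), 6223111 (KO1) and 10764026 (KO2) reads, so that 3 reads, the least that a count of 0 can exclude, were worth 0.1001, 0.172, 0.482 and 0.279 reads-per-million (RPM). Shares of reads had 95% Wilson intervals no wider than 0.0779 points to either side, which cover counting error only. KO1 rested mainly on technical replicate 2, with 5283169 of its reads against 939942 in technical replicate 1.

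MicroRNA markers of other cells moved with genotype. The list for Sertoli cells and gonad (both arms of miR-202) made up 0.0267% and 0.0406% of the miRNA reads in WT1 and WT2 and 5.95% and 2.50% in KO1 and KO2. The list for smooth muscle and stroma (4 of 4 tested arms of miR-199a and miR-214 higher in KO) rose from 0.0181% and 0.0351% to 0.556% and 0.901%. Endothelial miR-126a-3p rose from 0.0923% and 0.138% to 0.698% and 0.738%. The red blood cell list (miR-451a and miR-144-3p, 2 of 2 higher) stayed below 0.01% in every sample. The list for pachytene and later cells (miR-34b, miR-34c and miR-449a) fell in 5 of 5 tested arms relative to the other miRNAs (2 of 5 with library totals as sizes), from 0.0804% and 0.0786% to 0.0204% and 0.0108%. Among the defining markers miR-449c-3p had no read in either KO sample and 0 and 0.686 counts-per-million (CPM) in WT, and markers of liver and muscle (miR-122, miR-1a and miR-133a) were not analysed here. Sequences with at least 10 reads in the pachytene/diplotene (PD) library of the series made up 45.4% and 35.6% of the 24-33 nt reads in WT and 29.2% and 33.6% in KO. The part of somatic and later germ cells in the differences given here was not tested beyond the values without PD sequences. In sorted bulk samples fewer cells of a type and less RNA per cell cannot be told apart.

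The read population of piRNA length was smaller in KO. Reads of 24-33 nt, the length by which the study defines piRNAs, made up 45.2% of all reads in WT1 and 39.3% in WT2, against 23.45% in KO1 and 16.7% in KO2. The KO samples did not overlap the WT samples, and the means were 42.2% ± 4.1 and 20.1% ± 4.8 (SD, n = 2 each). Without PD sequences the share was 24.7% and 25.3% of all reads in WT against 16.6% and 11.1% in KO. The difference of the means was then -11.1 points, against -22.2 points with all sequences. An exact permutation test on 2 against 2 samples cannot go below 0.333, and it gave p = 0.333 (two-sided) here. It gave the same for those family sums, antisense shares, first-base shares, overlap ratios and promoter region sums below whose groups did not overlap. Family sums by read length, shares of noncoding RNA classes and miRNA lists, and sums over genes were not tested. The most frequent length was 26 nt in WT1 and 22 nt, the length of miRNAs, in WT2, KO1 and KO2. Within 24-33 nt it was 26 nt in both WT samples and 24 nt in both KO samples. The KO share differed between the technical replicates: technical replicate 1 gave 15.9% and 15.3% for KO1 and KO2, and technical replicate 2 gave 24.8% and 17.3%.

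The first base changed as well. U stood at the 5′ end of 74.8% and 72.1% of 24-33 nt reads in WT and of 36.1% and 42.3% in KO, a difference of -34.3 points between the means. Counting each distinct sequence once gave 69.5% and 72.5% against 33.2% and 35.3%. Without miRNA and listed noncoding RNA reads the values were 76.8% and 74.2% against 34.9% and 40.2%. The share of A at base 10 was 26.2% and 28.2% in WT and 26.0% and 24.7% in KO, and when each distinct sequence was counted once the difference of the means (KO minus WT) was 0.096 points. Fragments of the listed noncoding RNAs took 5.51% and 7.51% of the 24-33 nt reads in WT and 15.3% and 15.5% in KO. The listed classes were miRNA, snoRNA, snRNA, mitochondrial tRNA and rRNA, 5S-like rRNA, and 7SL, 7SK, Y and vault RNA. Cytoplasmic tRNA and the long cytoplasmic rRNAs had no reference, so their fragments were neither counted nor removed here. Among these classes snoRNA took 2.70% and 3.36% in WT against 6.66% and 5.83% in KO. The miRNA class took 1.19% and 2.02% against 3.76% and 6.28%, and was above snoRNA in KO2.

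**Figure D1:**
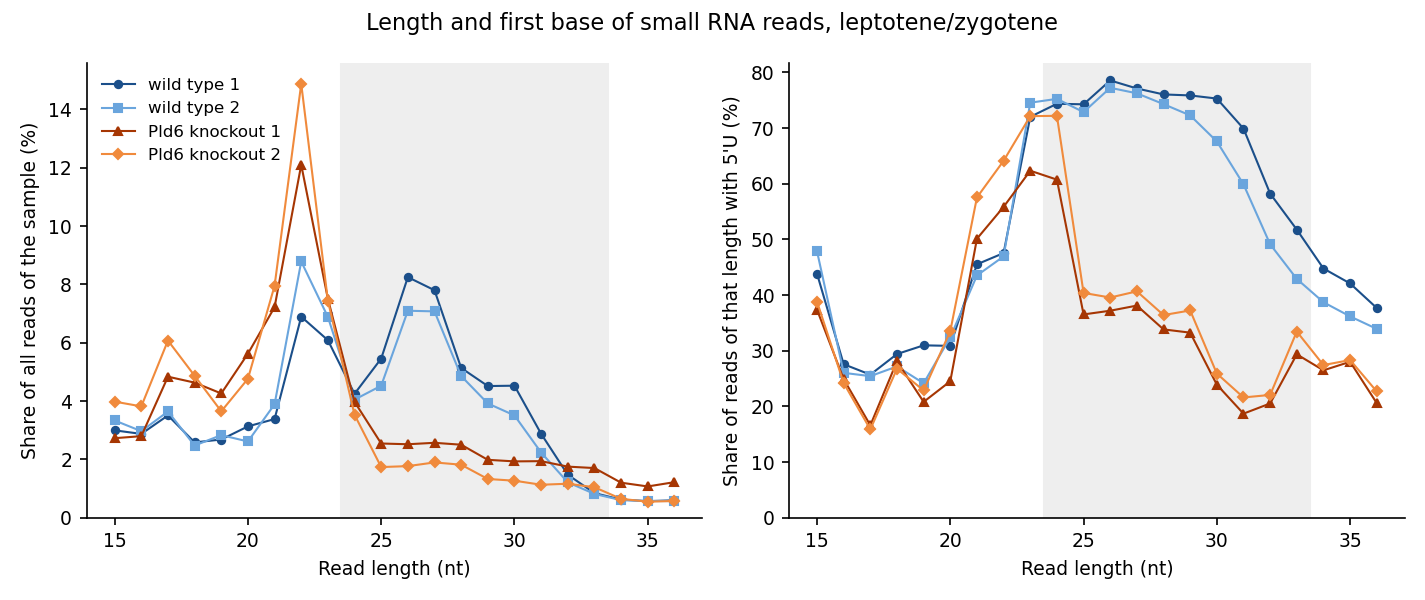
Share of all reads at each read length (left, %) and share of the reads of that length that start with U (right, %), 1 line per sample, with 24-33 nt shaded. Within the shaded range both WT lines peak at 26 nt and hold at least 42.9% U, whereas both KO lines peak at 24 nt and hold at most 40.7% U from 25 nt on.

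Small RNAs of most retrotransposons fell in KO. The deposited tables give RPM values of 24-33 nt reads for 268 rows (19 LINE, 231 LTR and 6 SINE consensus sequences or parts of them, and 12 other repeats or noncoding RNAs), with reads that matched several rows divided among them. Of the 139 rows with a mean of at least 1 RPM, 89.9% fell and 5 (3.6%) rose in KO by limma on log2(RPM + 1) with Benjamini-Hochberg adjustment at 0.05. The median log2 difference of KO minus WT was -2.82. The minimum was on the mean over all samples, so rows with hardly any KO reads passed through WT alone. RLTR9A2, at 2.18 and 1.88 RPM in WT and 0 and 0.065 RPM in KO, was such a row. The split of rows, also by class and by strand, thus depends in part on this minimum. Both KO samples lay below both WT samples in 129 rows (92.8%) and above them in 6 (4.32%). All 19 LINE rows fell, with a median of -4.01, and 104 of 108 tested LTR rows fell, with a median of -2.87. Of the 6 SINE rows 3 rose and none fell, with a median of 1.48. On this fit limma used the same standard error of 0.44 (log2) for every row, since it found no sign that rows differ in their spread, and its smallest adjusted p-values rest on that pooling.

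By strand the medians over all rows were close, with exceptions among IAP and B2 rows given with those families. Of 105 rows tested for antisense reads 98 (93.3%) fell and 5 (4.76%) rose, with a median of -2.83. Of 107 tested for sense reads 86 (80.4%) fell and 6 (5.61%) rose, with a median of -2.78. Scaling to miRNA reads instead of all reads moved the median of all rows by -0.45, and scaling to the sum of the listed rows moved it by 0.23. The sums of LINE, LTR and B1 rows kept their directions under both, while the sum of the B2 rows flipped from -0.30 to 0.032 under the second.

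**Figure D2:**
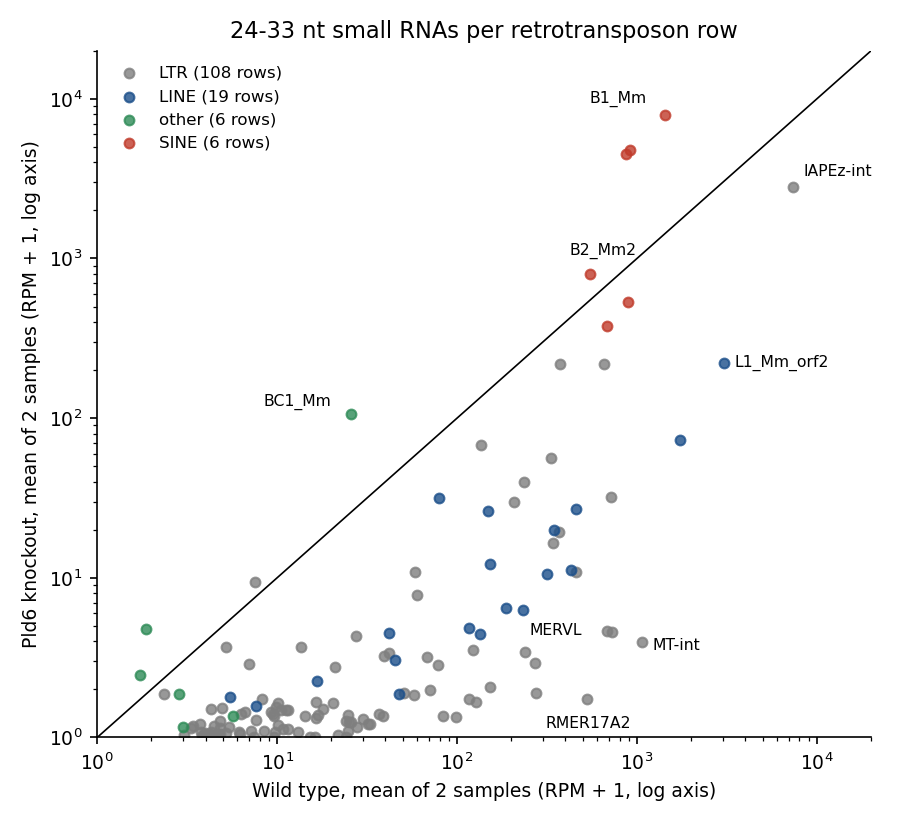
Mean RPM + 1 of 24-33 nt reads in WT (x axis, log) and KO (y axis, log) for the 139 tested rows, 1 point per row and n = 2 samples per mean, with the line of equal levels. All LINE points and all LTR points except MLTR25A lie below the line, and the 3 B1 rows, B2_Mm2, BC1_Mm, GSAT_MM and IMPB_01 lie above it.

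L1 elements, the autonomous LINE retrotransposons that are still active in the mouse, lost reads along their whole length. All LINE rows together held 4403 and 10637 RPM in WT and 496.8 and 405.7 RPM in KO, a 16.7-fold lower mean. The WT samples differed from each other by more than 2-fold, and the KO samples lay far below both. L1_Mm_orf2, the part that encodes the reverse transcriptase, was the highest LINE row with 1676 and 4402 RPM in WT and 242.6 and 198.9 RPM in KO (log2 difference -3.62, SE 0.44, limma adjusted p = 3.6e-14). L1_Mus3_orf2 fell from 1008 and 2457 RPM to 78.7 and 64.7 RPM. Among the 3′ parts, L1Md_F2_3end fell most, from 264.8 and 588.3 RPM to 10.3 and 10.2 RPM (log2 difference -5.14), and L1Md_T_3end and L1Md_A_3end had log2 differences of -4.01 and -4.05.

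The 6 rows of 5′ parts, which hold the promoter, fell by a median log2 difference of -2.56, with a range from -4.58 to -1.14. L1Md_A_5end, from the promoter of the A type, went from 80.9 and 212.6 RPM to 26.9 and 23.4 RPM (log2 difference -2.34, SE 0.44, limma adjusted p = 4.4e-07). L1Md_Gf_5end, of the Gf type, had 34.4 and 122.8 RPM in WT and 40.4 and 20.8 RPM in KO. Its samples overlap, its call (log2 difference -1.14, limma adjusted p = 0.012) rests on the pooled spread, and without WT2 the difference was -0.24 with the call lost. Summed over the rows, L1 5′ ends were at 178.1 and 493.2 RPM in WT and 75.9 and 48.1 RPM in KO, a 5.41-fold lower mean. L1 orf2 and 3′ ends had 16.3-fold and 26.8-fold lower means. These folds lean on WT2, and without it the log2 differences of the 3 sums were -1.56, -3.21 and -4.11, against -2.29, -3.88 and -4.64 with all samples. The differences between these parts were not tested.

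Summed over the LINE rows, antisense reads had a 30.8-fold and sense reads a 12.1-fold lower mean in KO, whereas the median log2 differences of single LINE rows were -3.90 and -3.99. Sense LINE reads numbered 2405 and 5813 RPM in WT and 384.0 and 296.7 RPM in KO, and antisense reads 1997 and 4824 against 112.8 and 108.9 RPM. The antisense share was 45.4% in both WT samples and 22.7% and 26.9% in KO1 and KO2, so the groups did not overlap. L1_Mm_orf2 and L1_Mus3_orf2 hold most of these reads, with a median of -4.98 antisense and -3.47 sense, against -4.40 and -4.48 for the 8 rows of 3′ ends. Reads of 11-18 nt, shorter than any piRNA, did not show this difference: sense LINE reads of that length were at 1633 and 1879 RPM in WT and 1523 and 1398 RPM in KO, and antisense reads at 1447 and 1612 against 1573 and 2064 RPM.

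IAP elements, the endogenous retroviruses that hold most of the LTR reads, kept more of their sense reads than of their antisense reads. The 25 IAP rows summed to 8279 and 13947 RPM in WT and 4074 and 2973 RPM in KO. Antisense reads were at 4721 and 6234 RPM in WT and 924.8 and 780.8 RPM in KO, a 6.42-fold lower mean. Sense reads were at 3559 and 7713 RPM in WT and 3149 and 2193 RPM in KO, a 2.11-fold lower mean, and KO1 lay close to WT1. The antisense share of IAP reads was 57.02% and 44.7% in WT and 22.7% and 26.3% in KO. All 21 tested IAP rows fell in antisense reads (median -2.65), whereas 10 of 19 fell in sense reads and 9 did not pass (median -2.19).

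IAPEz-int, the internal part of the IAPEz provirus and the row with most reads of all LTR rows, had 4996 and 9694 RPM in WT and 3249 and 2370 RPM in KO (log2 difference -1.33, SE 0.44, limma adjusted p = 0.0034). The call was lost without WT2 (-0.85) and without KO2 (-1.10). Its antisense reads fell from 2436 and 3707 RPM to 701.3 and 580.4 RPM (limma adjusted p = 3.4e-04), and its sense reads were at 2561 and 5987 against 2548 and 1790 RPM (limma adjusted p = 0.14). In IAPA_MM the strands parted further: sense reads were at 99.4 and 178.8 RPM in WT and 170.0 and 121.7 RPM in KO, with the groups overlapping, while antisense reads fell from 499.0 and 526.5 to 68.6 and 73.8 RPM. IAPLTR2b, an IAP long terminal repeat, had almost only antisense reads in WT, and these fell from 840.5 and 529.7 RPM to 14.4 and 13.8 RPM (log2 difference -5.47, limma adjusted p = 1.7e-06). Its sense reads were at 19.7 and 39.0 RPM in WT and 20.5 and 13.9 RPM in KO and did not pass (limma adjusted p = 0.20). IAPLTR1_Mm did not pass for both strands together (318.2 and 428.1 against 270.2 and 166.6 RPM, limma adjusted p = 0.079).

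Rows of the ERVL and MaLR groups lost nearly all reads. MERVL and its LTRs (the MT2 rows), elements known for their transcription at the 2-cell stage, summed to 1054 and 1396 RPM in WT and 7.49 and 5.48 RPM in KO, a 189-fold lower mean. The MT and ORR1 rows of the MaLR group, nonautonomous relatives of ERVL, summed to 1648 and 2996 RPM in WT and 18.3 and 9.90 RPM in KO, a 165-fold lower mean. MT-int went from 780.1 and 1347 RPM to 3.43 and 2.50 RPM (log2 difference -8.02). MTA_Mm, MERVL and MT2C_Mm had log2 differences of -7.29, -7.19 and -7.19. The largest fall of all rows was that of RMER17A2, a long terminal repeat, from 620.8 and 431.3 RPM to 1.00 and 0.46 RPM (log2 difference -8.24, SE 0.44). In these rows sense and antisense reads fell together: the log2 differences were -8.41 and -5.98 in RMER17A2 and -6.76 and -7.07 in MERVL.

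Other endogenous retroviruses lay between these groups. The 8 rows of RLTR10 and MMERVK10C, class II elements related to IAP, summed to 397.4 and 624.0 RPM in WT and 25.2 and 17.2 RPM in KO. MMERVK10C alone fell from 272.5 and 406.8 RPM to 17.2 and 13.7 RPM (log2 difference -4.35), and its LTR, RLTR10C, from 59.95 and 52.9 RPM to 1.06 and 0.645 RPM (log2 difference -4.96). The ETn rows (early transposons) summed to 174.9 and 367.7 RPM in WT and 2.35 and 3.04 RPM in KO. ETnERV fell from 67.6 and 163.7 RPM to 0.710 and 0.785 RPM (log2 difference -5.93). The LTR rows that did not pass were IAPLTR1_Mm, ETnERV3, MLTR25A and MMERGLN-int, the last 3 with a mean under 10 RPM in each group.

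**Figure D3:**
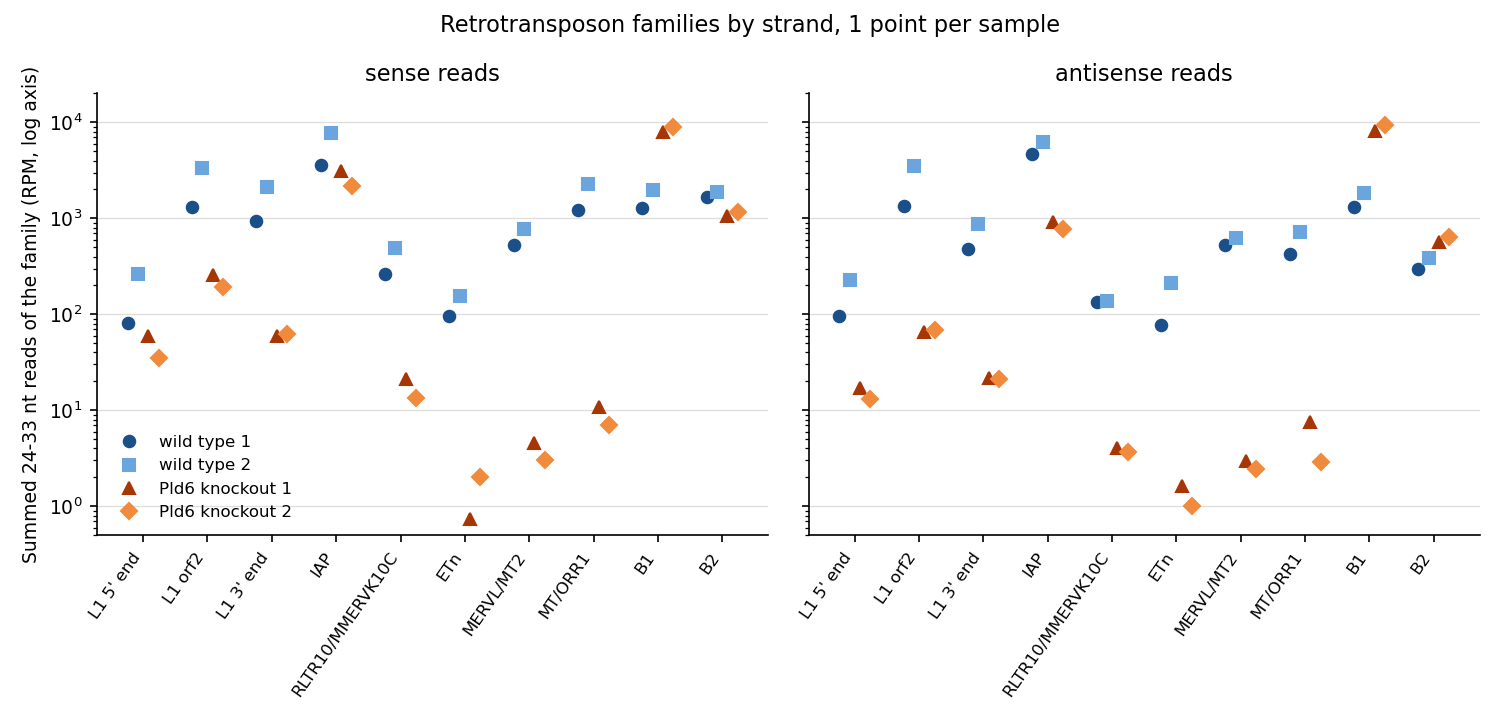
Summed 24-33 nt reads of 10 families (RPM, log axis) on the sense (left) and antisense (right) strand, 1 symbol per sample. In antisense reads all L1 and LTR families lie lower in both KO samples, in sense reads IAP (2.11-fold) and B2 (1.59-fold) are the families with the smallest gaps, and B1 lies higher in KO on both strands.

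B1 elements rose. B1 is a short SINE derived from 7SL RNA that lies in many genes and needs L1 proteins to move. The 3 B1 rows summed to 2607 and 3813 RPM in WT and 16089 and 18223 RPM in KO, a 5.34-fold higher mean. B1_Mm went from 1130 and 1719 RPM to 7352 and 8368 RPM (log2 difference 2.49, SE 0.44, limma adjusted p = 8.2e-08), and B1_Mus1 and B1_Mus2 rose by 2.40 and 2.39 on the log2 scale. The antisense share stayed near equal strands, with 50.3% and 47.9% in WT and 50.2% and 51.2% in KO.

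The rise depended on length. B1 reads of 19-23 nt were at 2162 and 2228 RPM sense in WT and 1937 and 2221 RPM in KO, with the groups overlapping. Antisense B1 reads of that length were at 5372 and 5621 RPM in WT and 5690 and 7091 RPM in KO, a 1.16-fold higher mean without overlap. Sense B1 reads of 28-33 nt were at 291.5 and 520.1 RPM in WT and 4740 and 5177 RPM in KO, a 12.2-fold higher mean. Antisense B1 reads of 28-33 nt were 7.77-fold higher, with 446.4 and 617.5 RPM against 4083 and 4184 RPM.

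B2, the other abundant mouse SINE, derived from a tRNA, did not follow B1. The 3 B2 rows summed to 1961 and 2270 RPM in WT and 1629 and 1800 RPM in KO, and none passed for both strands together. Split by strand, the sense reads of B2_Mm1a fell from 748.2 and 837.8 RPM to 326.0 and 362.9 RPM, and its antisense reads rose from 79.0 and 109.8 RPM to 173.8 and 207.2 RPM (limma adjusted p = 0.017 and 0.023). B2_Mm1t gave limma adjusted p = 0.0097 for lower sense reads and 0.034 for higher antisense reads. The antisense share of all B2 reads was 14.96% and 17.1% in WT and 34.8% and 35.2% in KO.

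Outside the retrotransposons 2 rows rose. BC1_Mm, a neuronal noncoding RNA gene from which the ID family of SINEs derives, went from 22.2 and 27.04 RPM to 145.98 and 65.1 RPM (log2 difference 1.95, limma adjusted p = 2.1e-05), nearly all in sense reads. GSAT_MM, the major satellite, was at 1.2 and 0.52 RPM in WT and 5 and 2.51 RPM in KO (log2 difference 1.33, limma adjusted p = 0.0034), and its call was lost without WT1, without WT2, without KO1, with a pseudocount of 5, with no filter, with technical replicate 1 alone and when scaled to miRNA reads. BC1_Mm lost its call without WT1, without WT2 and when scaled to miRNA reads.

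The reads of opposite strands that overlap by 10 nt came from few B1 sequences in KO. Pairs of 24-33 nt reads whose 10 bases at the 5′ end are the reverse complement of each other were 2.40 and 4.56 times as frequent as pairs with 11 to 20 nt overlap in WT, and 26.4 and 26.9 times in KO. The most abundant reads, up to 30 nt, behind the 2 leading pairs of each genotype are written here as DNA, with the 10 bases of the overlap in capitals. They are shown because each of the KO pairs made up at least 38.0% of the 10-nt pairs in KO.

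KO pair A, forward read: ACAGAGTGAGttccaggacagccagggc
KO pair A, reverse read: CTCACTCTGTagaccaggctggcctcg
KO pair B, forward read: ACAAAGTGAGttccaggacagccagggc
KO pair B, reverse read: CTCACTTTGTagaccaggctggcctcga
WT pair A, forward read: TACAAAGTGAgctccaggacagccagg
WT pair A, reverse read: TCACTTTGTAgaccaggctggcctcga
WT pair B, forward read: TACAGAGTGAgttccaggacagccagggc
WT pair B, reverse read: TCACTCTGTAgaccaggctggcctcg

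The 8 reads resemble the B1 element, and the KO reads occur in the transcripts of 224 to 272 annotated genes in the sense direction. The KO pairs made up 39.8% and 38.7% of the 10-nt pairs of KO1 and 40.3% and 38.0% of those of KO2. The WT pairs made up 12.9% and 8.13% in WT1 and 23.4% and 14.02% in WT2. The KO pairs are WT pairs moved by 1 nt: the KO forward read starts 1 nt downstream and the reverse read 1 nt upstream, so that neither read of a KO pair starts with T, while all 4 reads of the WT pairs do.

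The KO forward read of pair A had 40 and 78 reads (1.34 and 4.47 RPM) in WT and 2221 and 3097 reads (356.9 and 287.7 RPM) in KO, a 111-fold higher mean (edgeR quasi-likelihood test, log2 difference 6.80, SE 0.73, adjusted p = 2.8e-17). The KO reverse read of pair B had 1.94 and 4.98 RPM in WT and 349.5 and 236.6 RPM in KO, an 84.7-fold higher mean. The 4 KO-pair reads were 27.1- to 111-fold higher in KO. Of the 4 WT-pair reads 2 rose: the reverse read of pair A from 41.5 and 70.9 RPM to 153.8 and 129.3 RPM, a 2.52-fold higher mean, and the forward read of pair B from 8.81 and 16.6 RPM to 48.9 and 46.3 RPM, a 3.75-fold higher mean (edgeR adjusted p = 0.043 and 0.019). The other two, with 16.99 and 26.8 RPM in WT against 26.0 and 36.7 RPM in KO (forward read of pair A) and 20.6 and 31.2 against 23.5 and 21.7 RPM (reverse read of pair B), did not pass (edgeR adjusted p = 0.54 and 0.82). So WT reads with U at the 5′ end were present in KO, and the difference in fold between them and the shifted reads was not tested.

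Reads that begin with 1 of the 4 KO 10-mers made up 0.0169% and 0.0502% of 24-33 nt reads in WT and 2.98% and 3.81% in KO. Without them the ratio was 2.42 and 4.67 in WT and 14.4 and 16.4 in KO, a value computed after the pairs were seen. The overlap of 10 nt in KO was joined by overlaps of 11 nt (55.2 and 93.9 ppm of the possible read pairs, against 249.8 and 414.8 ppm at 10 nt), and in WT these were at 1.72 and 2.50 ppm against 3.47 and 8.52 ppm. A pair that ranked next in WT1, but was not among the leading pairs of WT2, was nearly absent in KO. Its reads starting with AACTTGACTA were at 439.5 and 323.2 RPM in WT and 1.37 and 1.11 RPM in KO, relative to the 24-33 nt reads of each sample. Of the other leading WT pairs some fell likewise and others did not. On the same scale, reads starting with TGGGATTAAA, of a leading pair of WT2, were at 245.3 and 536.6 RPM in WT and 1072 and 1143 RPM in KO.

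**Figure D4:**
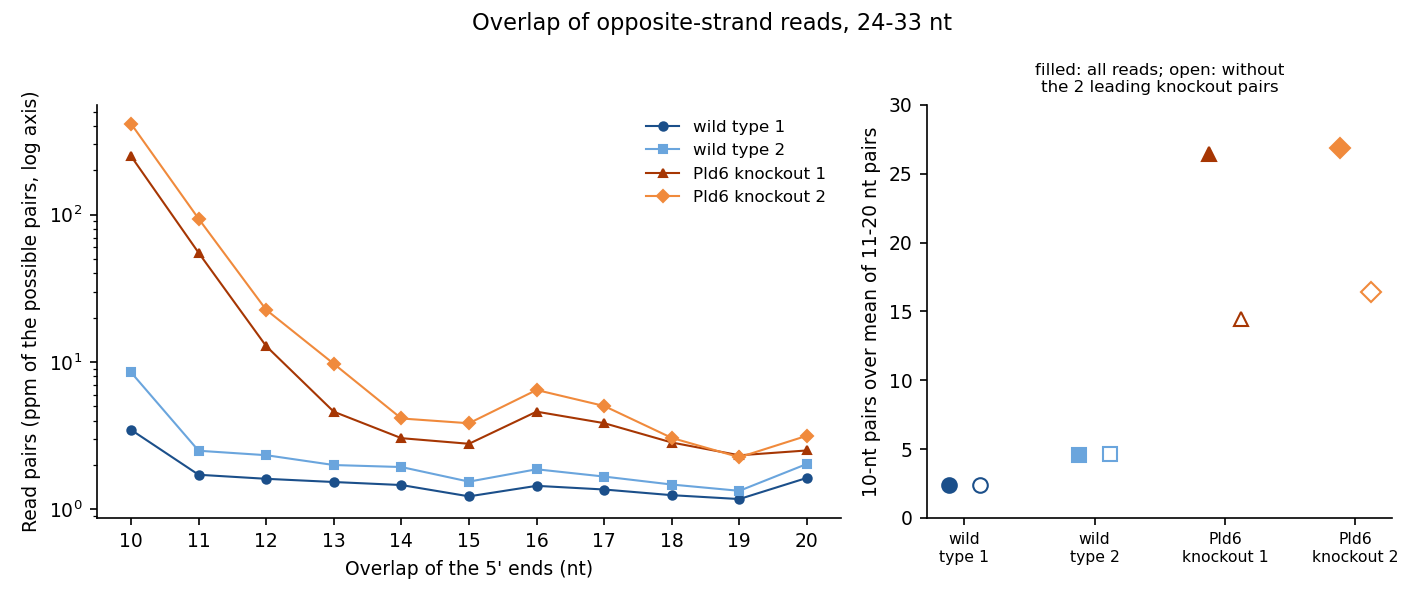
Left, pairs of opposite-strand 24-33 nt reads by the overlap of their 5′ ends (nt), in ppm of the possible read pairs (log axis), 1 line per sample. Right, the ratio of 10-nt pairs to the mean of 11-20 nt pairs with all reads (filled) and without reads of the 2 leading KO pairs (open); both KO samples lie above both WT samples in either case.

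Reads were also matched, with up to 2 mismatches, to 8 retrotransposon promoter regions that the study amplified. The MT2-MERVL region held 197.6 and 289.9 RPM in WT and 0.964 and 1.21 RPM in KO, a 224-fold lower mean. The RLTR10C-MMERVK10C region held 22.8 and 42.0 RPM in WT and 0.803 and 0.836 RPM in KO. The L1Md_A region held 18.8 and 41.2 RPM in WT and 9.80 and 9.94 RPM in KO, a 3.04-fold lower mean, which is the smallest difference among these 3.

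IAPLTR1_MM was the region with most reads, and its strands differed. Reads in the direction of the listed region were at 89.4 and 196.4 RPM in WT and 134.8 and 79.2 RPM in KO, so the groups overlapped. Reads of the opposite strand were at 749.6 and 452.9 RPM in WT and 54.3 and 38.3 RPM in KO, a 13.0-fold lower mean. The IAPLTR1_Mm row held far fewer antisense reads in WT, with 37.2 and 58.8 RPM against 24.1 and 20.7 RPM in KO. The matches to this region are therefore not a measure of that row. Whether reads of related IAP long terminal repeats were matched here was not tested. The reads given here are the most abundant of their strand in the region named, with the 5′ base and base 10 in capitals, shown because they include reads that were lost and 1 that remained.

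IAPLTR1_MM, opposite strand: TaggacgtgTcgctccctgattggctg
IAPLTR1_MM, listed strand: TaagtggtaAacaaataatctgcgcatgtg
MT2-MERVL, listed strand: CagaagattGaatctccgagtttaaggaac
RLTR10C-MMERVK10C, opposite strand: TaggacgggTaaggctgtgacatga
L1Md_A, listed strand: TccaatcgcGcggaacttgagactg

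The IAPLTR1_MM read of the opposite strand (positions 111 to 137 of the 263-bp region, 1 mismatch) had 3328 and 829 reads in WT, or 111.1 and 47.5 RPM, and 0 in both KO samples, which makes it at least 449-fold lower against the floor of 3 reads over both KO samples. It had 1502 reads in the PD library. The read of the listed strand (positions 16 to 45, no mismatch) was at 3.57 and 12.8 RPM in WT and 6.11 and 3.99 RPM in KO and did not pass (edgeR adjusted p = 0.48). The MT2-MERVL read had 219 and 163 reads in WT and 0 in KO, at least 47.1-fold lower, and the RLTR10C-MMERVK10C read 34 and 33 reads in WT and 0 in KO, at least 8.56-fold lower. The L1Md_A read had 52 and 50 reads in WT and 0 and 1 in KO.

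Small RNAs of genes fell as well, a comparison added after the data were seen. Sense reads of 24-33 nt that matched transcripts of only 1 gene (GENCODE vM21, GRCm38) were at 66769 and 66796 RPM in WT and 16086 and 11411 RPM in KO. Of 6386 genes with at least 50 such reads, 5109 (80.0%) fell and 106 (1.66%) rose in KO by edgeR's quasi-likelihood test (median log2 difference -2.42). The minimum was set on reads summed over all samples, to which the deeper WT samples gave most, so the split depends on it. U stood first in 79.2% and 77.5% of these reads in WT and in 30.8% and 31.7% in KO. Of the 1212 genes with over 80% of their reads in the 3′UTR, 1117 (92.2%) fell, with a median of -3.94. Of the 1085 genes with over 80% in coding sequence, 846 (78.0%) fell, with a median of -2.06. These groups were formed by where the counted reads lie, to which WT gave most, so their contrast depends on this grouping. The median gene had 87.0% U in WT in the first group and 65.8% in the second. The difference between the groups was not tested.

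The genes named next were the highest among those called lower with over 80% of their reads in the 3′UTR. They were chosen after their values were seen, and that they fell was set by this choice. Abl2, which encodes a tyrosine kinase (chr1:156558786-156649568, plus strand, 98.8% of reads in the 3′UTR), went from 393.1 and 476.2 RPM to 2.73 and 2.04 RPM (log2 difference -7.53, SE 0.54, edgeR adjusted p = 8.8e-37), with no WT read in a PD sequence. Rab11fip4, an effector of RAB11 in vesicle transport (chr11:79591212-79698023, plus strand, 92.99% in the 3′UTR), went from 334.2 and 331.6 RPM to 1.61 and 1.77 RPM. Cbl, a ubiquitin ligase gene, and Eif4ebp2, a translation repressor gene, had log2 differences of -7.42 and -7.40. D10Wsu102e, the highest of them with 576.2 and 1251 RPM in WT, kept 78.7 and 61.7 RPM in KO (log2 difference -3.70). The share of reads starting with U in KO was 48.7% in Abl2 and 17.2% in Rab11fip4, against over 90% in WT for both, from few KO reads.

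Noncoding genes with the most reads were largely made of sequences also found in the PD library. Gm49794 (chr17:27354111-27367492, plus strand) went from 6583 and 4152 RPM to 2.09 and 1.02 RPM, and 82.6% of its WT reads were PD sequences. Gm10505 (chr17:27325035-27344833, plus strand) went from 1799 and 1388 RPM to 0.161 and 0.0929 RPM, with 1 read in each KO sample. Gm21269 and 1700001L05Rik had log2 differences of -9.81 and -9.25, with 73.5% and 73.1% PD sequences. Of the 6046 genes with no WT read in a PD sequence 4787 (79.2%) fell and 99 (1.64%) rose, with a median of -2.33.

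The genes that rose varied in their share of U-starting reads. Lars2, a mitochondrial leucyl-tRNA synthetase gene, went from 270.2 and 216.1 RPM to 1399 and 532.0 RPM (log2 difference 1.99, edgeR adjusted p = 2.3e-05), with 21.5% U in WT and 21.03% in KO. Mrps10, a mitochondrial ribosomal protein gene, went from 2.87 and 6.76 RPM to 131.8 and 100.4 RPM (log2 difference 4.61), and its share of U changed from 77.0% to 10.4%, with 1.00% of its reads in coding sequence and 1.00% in the 3′UTR. Rpl13, a ribosomal protein gene, rose from 332.6 and 347.7 RPM to 943.4 and 577.1 RPM with over 99% U in both genotypes and under 1% of its reads in coding sequence and 3′UTR.

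Of 43293 distinct 24-33 nt sequences with at least 50 reads, 31369 (72.5%) fell and 3725 (8.6%) rose in KO by edgeR's quasi-likelihood test. This split is set in large part by the minimum, which was on reads summed over all samples: 28352 of the tested sequences had no KO read and passed through the deeper WT samples alone, and 349 had no WT read. U starts 76.3% of all tested sequences, 91.6% of those that fell, 36.8% of those that rose and 35.7% of those not called. Sequences with at least 10 reads in the PD library made up 60.8% of all tested, 80.3% of those that fell, 3.95% of those that rose and 11.8% of those not called. Without PD sequences 6405 of 16984 fell and 3791 rose. The sequences that fell summed to 142118 and 91985 RPM in WT and 5435 and 3767 RPM in KO. Of those that rose 10.9% occur in the transcripts of over 20 genes, as do 2.21% of those that fell and 3.41% of all tested.

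The miRNA population served as a comparison for reads that do not need PLD6. MiRNAs took 6.21% and 9.18% of all reads in WT and 11.1% and 14.1% in KO. CPM values on sizes scaled by the trimmed mean of M-values (TMM) gave 86 of 392 tested miRNAs lower (21.9%) and 104 higher (26.5%) in KO by edgeR's quasi-likelihood test. With library totals as sizes the split was 11 lower and 224 higher, and the median of all miRNAs moved by 1.80 (log2). Directions of single miRNAs are therefore given relative to the other miRNAs. The TMM factors were 0.509 and 0.909 in WT1 and WT2 and 1.58 and 1.36 in KO1 and KO2. The CPM values of all miRNAs thus sum to 1.96e+06 and 1.10e+06 in WT and 631601 and 732874 in KO. They are not shares of the miRNA reads, and differences between CPM values include this scaling.

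The X-linked cluster, a set of testis miRNAs on the X chromosome that are abundant in spermatocytes, took 67.2% and 65.5% of all miRNA reads in WT and 40.3% and 38.7% in KO. Of its 31 tested members 12 were lower, 4 higher and 15 not called relative to the other miRNAs, and with library totals none was lower and 18 were higher. The median member changed by 0.12, close to the 0.13 of all miRNAs, and its most abundant members were among the lower ones. The mature sequences of these are given with the seed (bases 2 to 8, from RefSeq, GRCm38.p6) in capitals.

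miR-881-3p: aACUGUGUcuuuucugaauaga
miR-871-3p: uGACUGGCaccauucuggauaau
miR-465c-5p: uAUUUAGAauggcgcugaucug
miR-465b-5p: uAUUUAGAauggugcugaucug
miR-741-3p: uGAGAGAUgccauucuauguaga

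The 2 miR-465 members share a seed, and the other 3 have seeds of their own. On the TMM scale miR-881-3p was at 420576 and 215184 CPM in WT and 47892 and 68871 CPM in KO (log2 difference -2.55, SE 0.65, edgeR adjusted p = 0.016). With library totals its log2 difference was -0.53 and did not pass (edgeR adjusted p = 0.42). The log2 differences of miR-871-3p, miR-465c-5p, miR-465b-5p and miR-741-3p were -2.13, -2.43, -2.21 and -2.27 on the TMM scale and between -0.017 and -0.44 with library totals. MiR-30a-5p, a widely expressed miRNA, behaved alike with -2.32 and -0.27.

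The let-7 family, which is associated with differentiated cells, took 5.40% and 3.72% of miRNA reads in WT and 10.9% and 14.002% in KO, with 11 of 18 members higher and none lower. The list of the miR-10 and miR-99 family took 1.23% and 1.01% in WT and 7.28% and 8.87% in KO, with 5 of 11 higher and none lower. The miR-17/92 family took 2.29% and 2.83% in WT and 2.46% and 2.26% in KO, with 4 lower, 4 higher and 8 not called. The miR-30 family had 4 of 7 lower, the list of miR-200 and miR-182 families 2 lower and 3 higher of 11, and the miR-290 cluster 1 lower and 3 higher of 6, beside 21.9% lower and 26.5% higher among all miRNAs. With library totals none of these members was lower: 10 of the miR-17/92 family, 2 of miR-30, 6 of miR-200 and miR-182 and 4 of the miR-290 cluster were higher. The lists of let-7, of miR-10 and miR-99 and of stroma moved up together with the somatic markers given above, and the part of somatic cells in this was not tested.

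MiR-202-5p (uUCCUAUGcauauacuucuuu), which is known from Sertoli cells, was at 473.3 and 425.5 CPM in WT and 37066 and 18103 CPM in KO (log2 difference 5.89, SE 0.65, edgeR adjusted p = 0.0015). MiR-34b-5p and miR-449a-5p, which are abundant from pachytene on and share the seed GGCAGUG, fell from 139.4 and 78.2 CPM to 8.22 and 6.74 CPM and from 663.4 and 364.4 CPM to 63.96 and 51.5 CPM. With library totals the log2 differences of the latter pair were -1.99 (edgeR adjusted p = 0.036) and -1.28 (edgeR adjusted p = 0.16). For spermatogonia, miR-146a-5p fell from 1305 and 1190 CPM to 192.8 and 186.8 CPM, miR-221-3p rose from 1.06 and 3.43 CPM to 28.3 and 37.5 CPM, and miR-21a-5p and miR-222-3p did not pass. With library totals the call of miR-146a-5p was lost (log2 difference -1.01, edgeR adjusted p = 0.23).

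**Figure D5:**
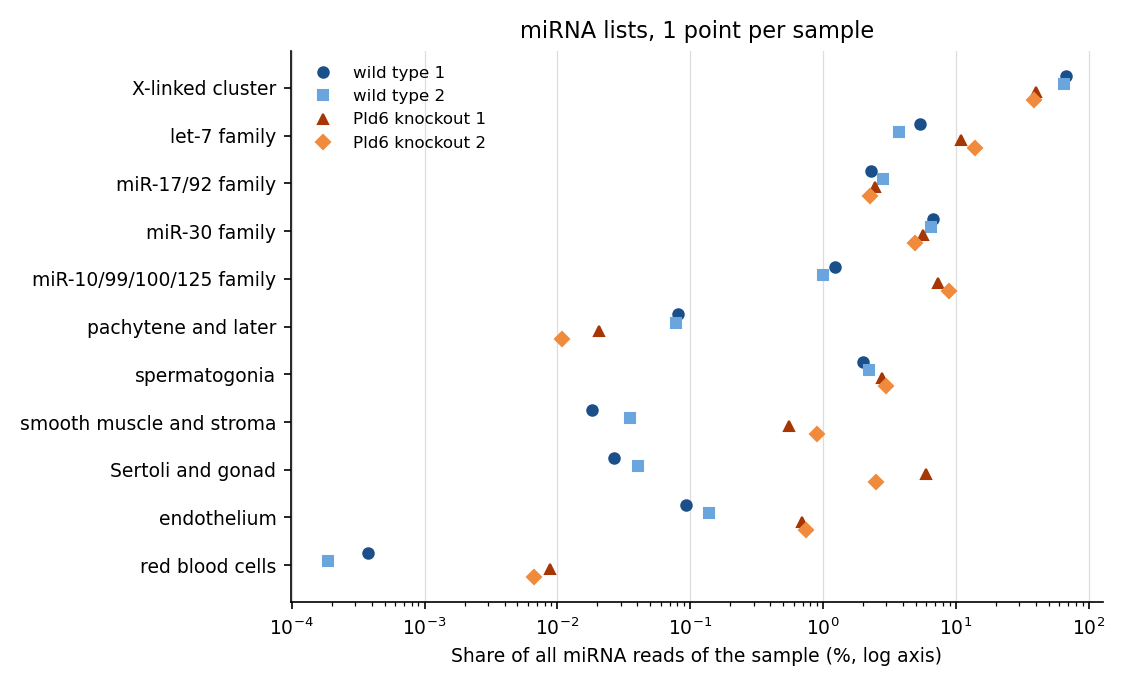
Share of all miRNA reads (%, log axis) taken by 11 miRNA lists, 1 symbol per sample. The lists for stroma, Sertoli cells and gonad, endothelium and red blood cells lie higher in both KO samples, and the X-linked cluster and the list for pachytene and later cells lie lower.

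The largest falls among called miRNAs were those of miR-7217-3p, miR-7230-5p, miR-7210-5p, miR-468-5p and miR-7214-3p, none of which had more than 1 CPM in a KO sample. MiR-7210-5p was at 455.3 and 114.6 CPM in WT and at 0 and 0.481 CPM in KO. The largest rises were those of let-7j, miR-299a-5p, miR-24-1-5p, miR-133b-3p and miR-99a-3p, all without a read in WT. Let-7j reached 193.7 and 166.1 CPM in KO, and the other 4 between 6.26 and 16.5 CPM.

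In spermatogonia of the series (1 WT sample and 2 KO samples) the SINE rows were lower in KO. B1 rows summed to 4441 RPM in WT and 2156 and 1796 RPM in KO, and B2 rows to 3192 RPM in WT and 441.1 and 315.3 RPM in KO. LINE rows were at 11492 RPM in WT and 360.1 and 311.9 RPM in KO. With 1 WT sample the difference between the stages was not tested.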

How the data were processed

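Small RNA reads were adapter-trimmed by the authors (cutadapt), who deposited raw counts of each distinct sequence per library, and RPM values per retrotransposon row, length and strand. For the RPM tables the authors removed abundant noncoding RNAs and miRNAs and mapped reads to consensus sequences with SeqMap. Of the technical replicates of a KO sample, RPM values entered as their mean and counts as their sum. Log2(RPM + 1) of rows with a mean of at least 1 RPM was fitted with limma 3.58.1 (R 4.3.3). Counts were tested with edgeR 4.0.16: miRNAs with TMM, sequences and genes (at least 50 reads) with library totals. Reads were matched to RefSeq miRNAs (5′ end within 2 nt, 3′ end within 3 nt) and exactly to GENCODE vM21 transcripts (GRCm38). Sums and shares were compared by exact permutation tests. P-values were adjusted by the Benjamini-Hochberg method (threshold 0.05). Scripts were tested on simulated data. DESeq2 1.42.0, other filters and scalings, and fits with a sample left out served as alternatives.

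Rows named were the 5 highest of each class, the 5 largest changes in each direction with a mean of at least 10 RPM, and a list of L1 and LTR elements. MiRNAs named were the 10 highest, the 5 largest changes in each direction and members of the marker lists. The 6 most abundant U-starting sequences in each direction that matched no listed miRNA or noncoding RNA were mostly not printed, since they resembled structural RNAs or longer forms of miRNAs. B2_Mm1t, GSAT_MM, the genes and the B1 reads were named after their values were seen. Members and lists were chosen with earlier results of these data known. Some marker miRNAs, 2 stray table rows and the spermatid library were not used here.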

Additional observations from a re-analysis of the deposited data

Results flagged for a closer look

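In 4 of the 139 retrotransposon rows every KO sample of leptotene/zygotene lay above both WT samples while both KO samples of spermatogonia lay below the WT sample of that stage, and no row showed the opposite. These rows were B1_Mm, B1_Mus1, B1_Mus2 and B2_Mm2. B1_Mm was at 2138 RPM in WT spermatogonia and 1080 and 872.3 RPM in KO spermatogonia, and B2_Mm2 at 723.3 RPM and 177.5 and 107.1 RPM. In leptotene/zygotene B2_Mm2 was at 475.4 and 622.9 RPM in WT and 768.8 and 835.3 RPM in KO and did not pass. The log2 difference of KO minus WT was higher in leptotene/zygotene than in spermatogonia by 3.63 (B1_Mm), 3.59 (B1_Mus1), 3.62 (B1_Mus2) and 2.94 (B2_Mm2). Over all rows this value was above 0 in 61 and below 0 in 78. The difference between the stages was not tested, since WT spermatogonia are 1 sample, and it was computed after the data were seen.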

How the results depend on the processing

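The depth of the KO samples and n = 2 per genotype limit single values, and where a sample was left out the lone sample of its genotype is assumed to vary like the others. Sums, shares, overlaps and amplicon values kept their direction in 230 of 232 comparisons. The B2 sum (0.0323 when scaled to the sum of listed rows) and the share of A at base 10 (0.0962 points over distinct sequences) reversed, and the cause was not tested.

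Fewer rows were tested at a mean of at least 10 RPM, and 63 were lower for both strands, 47 for antisense and 43 for sense reads. These counts do not show whether the share of rows called changed. The number of higher rows was 3 for both strands when scaled to miRNA reads, 3 for antisense reads with a pseudocount of 0.1, with scaling to miRNA reads and with technical replicate 1 alone, and 3 for sense reads with no filter. Scaling to miRNA reads moved the median of all rows by -0.449 and scaling to the listed rows by 0.231. With each sample left out in turn 107 to 127 rows were lower and 3 (without WT1) to 5 higher for both strands, 80 to 97 and 3 (without KO1) to 6 for antisense, and 71 to 82 and 3 (without WT1) to 5 for sense reads.

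Sequences called lower and higher numbered 5629 and 944 at a minimum of 200 reads and 84913 and 9004 at a minimum of 20. These minima test fewer and more sequences, so the counts do not show whether the share called changed. Without PD sequences 6405 of 16984 (37.7%) were lower, against 72.5% of all tested sequences. Those higher numbered 1857 with miRNA totals as size, 804 with technical replicate 1 alone and 2455 (without WT1) to 3770 with a sample left out, when 21318 to 31053 were lower. Genes called higher numbered 50 with miRNA totals, 41 with technical replicate 1 alone and 66 (without WT1) to 92 with a sample left out, when 3981 to 5230 were lower. DESeq2, fitted to the same 6386 genes, gave 4064 lower and 80 higher. The cause was not tested.

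MiRNA calls depended most on the scale, with 11 lower and 224 higher for library totals. There miR-7a-5p (0.41), miR-470-5p (0.20), the shared 3p arm of miR-465a, miR-465b and miR-465c (0.26) and miR-148a-3p (1.30) turned from lower to higher, the first 3 of them without a call. With technical replicate 1 alone 68 were higher. With a sample left out 47 (without KO1) to 122 were lower and 69 (without KO2) to 106 higher. DESeq2 gave 101 lower and 95 higher.

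The replicate numbers were not used as pairs, since the labels state no pairing of WT and KO samples. Deviations of same-numbered samples correlated between -0.267 and 0.129 over the fits, which cannot show whether samples were paired. A replicate block gave 34 lower and 58 higher miRNAs, 124 lower and 5 higher rows for both strands, 31456 and 3698 sequences and 4944 and 98 genes.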
